A study of Mus musculus with 12 samples.

Results

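The 43 genes described here copy DNA or divide the cell. They were taken by name from a table of 55586 genes and comprise 27 S phase genes and 16 mitotic genes. Each name matched 1 gene, and all 43 were among the 13474 genes that passed a filter on low counts. The RNA came from mouse peritoneal macrophages, phagocytes of the abdominal cavity, kept in culture medium with serum. Total RNA was sequenced from 12 libraries in 4 groups of 3. The control group received neither agent. The other groups received interferon gamma (IFN-γ, the cytokine that activates macrophages), Remodelin hydrobromide, or Remodelin hydrobromide followed by IFN-γ. Remodelin is a small molecule described as an inhibitor of NAT10, an enzyme that acetylates cytidine in RNA. The labels give no mouse strain, age, sex, dose or exposure time. Nor do they state whether the libraries of one group stem from different animals or culture dishes, so p-values measure only the spread between libraries, which may be technical.

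A cell that prepares to divide first loads the ring-shaped MCM2-7 helicase onto replication origins, a step called licensing, which needs Cdc6 and Cdt1. The ring is then activated with Cdc45 and the GINS complex, and polymerases, clamp and ligase copy the strands. Genes of this phase are classic targets of the E2F transcription factors, which the retinoblastoma protein family restrains in resting cells. Genes of mitosis are transcribed later, by the MuvB complex with B-MYB and FOXM1, and carry a promoter element called CHR (cell cycle genes homology region), often beside CCAAT boxes bound by NF-Y. Resident peritoneal macrophages are mostly quiescent and renew themselves by local division at a low rate. The sample titles do not state whether the cells used here were resident. In bulk RNA, fewer dividing cells and less of these transcripts per dividing cell cannot be told apart.

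The promoters of the members carry the letters of these elements. RefSeq promoter windows (build GRCm38.p6), each running from 250 bases before to 50 bases after a gene's start, matched 36 of the 43 members with 42 windows. No window was matched for Tpx2, Gins2, Ccne2, Aurkb, Mcm4, Gins1 and Ccna2. Both strands were searched for TTCCCGC or TTGGCGC (E2F), TTTGAA (CHR) and CCAAT. The E2F letters were present in 14 of 29 S phase windows (48.3%) and in 3 of 13 mitotic windows (23.1%), against 6.81% of all 32851 windows. The CHR letters were present in 4 of 29 S phase windows (13.8%) and in 10 of 13 mitotic windows (76.9%), against 17.9% of all windows. CCAAT was present in 62.1% of S phase and 84.6% of mitotic windows, against 37.4% of all. An E2F match on one strand can share bases with a CCAAT match, as it did in 3 member windows. These matches are descriptions of letters, not of bound sites.

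**Figure D1:**
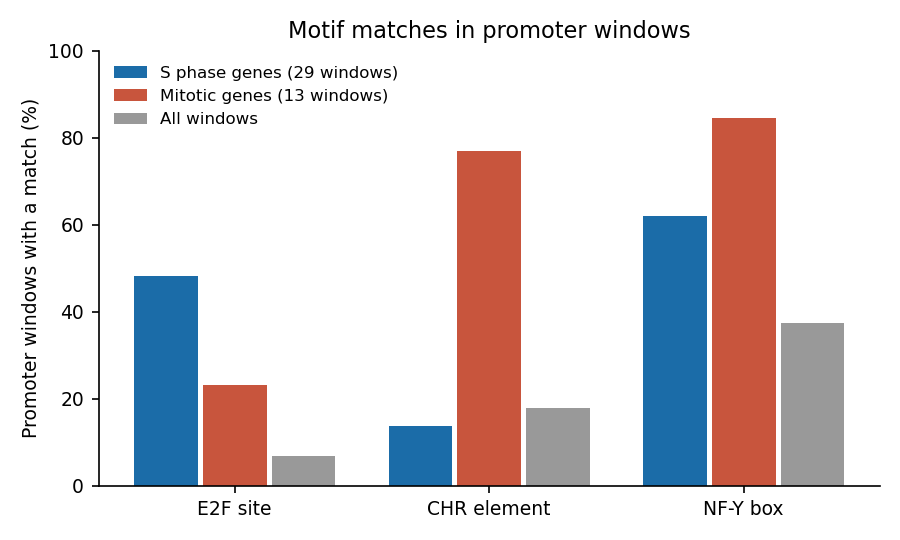
Share of RefSeq promoter windows of 300 bases (vertical axis, percent) that hold the E2F, CHR or CCAAT (NF-Y box) letters, for the S phase members (blue, 29 windows), the mitotic members (red, 13 windows) and all 32851 windows (grey). The E2F letters were most frequent among S phase windows (48.3%) and the CHR letters among mitotic windows (76.9%).

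A pair of windows is shown for each group, 1 of a gene that fell with Remodelin (Mcm5, Cdc20) and 1 of a gene that did not pass the test (Mcm6, Top2a), so that the elements can be compared with the values below. Each is written 5′ to 3′ on the gene's strand, and capitals mark the E2F, CHR and CCAAT matches on either strand. Positions count from the gene's start. The Mcm5 window (chr8:75109259-75109558, plus strand) has E2F matches at -164 and -149. The Mcm6 window (chr1:128359656-128359955, minus strand) has them at -109 and -46. In the Cdc20 window (chr4:118437294-118437593, minus strand) a CHR match at -18 lies between CCAAT boxes at -53 and -8. The Top2a window (chr11:99024140-99024439, minus strand) has CHR matches at -179 and -23 and 6 CCAAT boxes.
Mcm5: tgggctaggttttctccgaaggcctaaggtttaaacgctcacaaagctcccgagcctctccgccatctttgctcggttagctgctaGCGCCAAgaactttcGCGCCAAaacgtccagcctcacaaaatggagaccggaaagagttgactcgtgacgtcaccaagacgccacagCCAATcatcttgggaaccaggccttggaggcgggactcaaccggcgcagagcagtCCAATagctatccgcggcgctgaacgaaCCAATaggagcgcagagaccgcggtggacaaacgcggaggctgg
Mcm6: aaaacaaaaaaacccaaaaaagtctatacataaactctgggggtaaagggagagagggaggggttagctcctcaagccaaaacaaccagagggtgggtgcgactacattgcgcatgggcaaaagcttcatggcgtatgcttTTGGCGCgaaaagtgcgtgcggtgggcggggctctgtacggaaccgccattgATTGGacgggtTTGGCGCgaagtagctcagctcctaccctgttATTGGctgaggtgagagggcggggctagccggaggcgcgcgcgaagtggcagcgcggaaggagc
Cdc20: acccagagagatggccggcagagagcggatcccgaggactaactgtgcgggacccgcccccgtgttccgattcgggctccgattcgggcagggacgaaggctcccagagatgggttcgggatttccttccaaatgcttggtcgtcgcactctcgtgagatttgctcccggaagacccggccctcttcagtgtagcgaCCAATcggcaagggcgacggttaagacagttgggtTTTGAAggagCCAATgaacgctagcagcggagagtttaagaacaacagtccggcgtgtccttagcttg
Top2a: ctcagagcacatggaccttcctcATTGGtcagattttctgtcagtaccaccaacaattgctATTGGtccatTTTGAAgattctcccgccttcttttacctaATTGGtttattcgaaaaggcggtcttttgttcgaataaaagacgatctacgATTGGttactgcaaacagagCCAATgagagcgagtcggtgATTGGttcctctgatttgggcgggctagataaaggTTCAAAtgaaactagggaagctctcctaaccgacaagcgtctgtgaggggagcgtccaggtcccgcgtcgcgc

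Library totals ran from 15917454 to 19418665 counts, at which 3 reads equal 0.154 to 0.188 CPM (counts scaled to a common library size, here after TMM normalisation). The 8 macrophage markers, summed to between 14940 and 25230 CPM in every library. Most of this was Lyz2 (12670 to 23170 CPM), with Cd68 at 1103 to 1801, Adgre1 at 148 to 199.6, Csf1r at 103.3 to 215.3 and Timd4 at 0.117 or less. The 7 T and NK cell markers summed to at most 4.13 CPM, the 6 dendritic cell markers to between 208.7 and 519.8 and the 11 mesothelial and stromal markers to between 186.7 and 441.9. Nearly all of the dendritic cell sum was Itgax, with 3279 to 9951 reads per library. Zbtb46 had 33 to 80 reads, and Flt3, Xcr1, Cd209a and Clec9a had at most 11. In the deposited FPKM values (scaled to gene length and library size, so that genes can be compared) the members spanned a wide range in control macrophages. Pcna, the sliding clamp of DNA polymerase, was highest at 85.8 ± 10.9 FPKM (SD, n = 3). The licensing factor Cdt1 followed at 12.4 ± 0.583 and Mcm5 at 10.2 ± 2.41, and Mcm5, Mcm3 (9.79 ± 0.332) and Cdc20 (9.57 ± 0.577) did not differ beyond their spread. The proliferation marker Mki67 stood at 0.548 ± 0.266, and Bub1 (0.239 ± 0.1), Ccne2 (0.191 ± 0.0503) and Kif20b (0.0922 ± 0.0342) were lowest. The median was 4.5 FPKM over the S phase genes and 3.05 over the mitotic genes.

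The first question was whether Remodelin changed these genes when all 12 libraries were used, as the mean of its effects without and with IFN-γ (called the average Remodelin effect from here). Of the 43 members 15 fell and 0 rose, 9 of 27 S phase genes and 6 of 16 mitotic genes (edgeR quasi-likelihood test, Benjamini-Hochberg adjusted p under 0.05 over all 13474 genes). Over all tested genes 7.04% were called, 4.80% lower and 2.24% higher. The members were chosen with earlier results of these data known. Their counts and medians beside those of all genes, here and below, are therefore descriptions and no test of the set. Of the other replication and other mitosis genes, described below, 6.82% and 6.12% fell. The members' median log2 fold change was -0.28, with -0.26 for S phase and -0.31 for mitotic genes, against 0.03 over all genes. All 16 mitotic genes and 21 of 27 S phase genes had a negative estimate, as did 6283 of all 13474 genes. The mitotic estimate nearest 0 was that of Bub1, at -6e-04. With each library's trend on GC content removed, 1 member, Cdt1, was called higher. At an unadjusted p under 0.05 there were 22 members (51.2%) against 26.1% of all genes. The lowest estimates were those of Mcm5, Cdc20, Ccne2 and Tk1, of which Ccne2 did not pass the test.

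The count depended on single libraries. It was 15 with all libraries and lay between 6 and 17 when each was left out in turn. It fell to 7 without control 2, 9 without control 3, 6 without IFN-γ 1, 8 without IFN-γ 2 and 9 without IFN-γ 3. It also fell to 11 without Remodelin 2 and 8 without Remodelin 3. Without Remodelin + IFN-γ 1, 2 or 3 it was 10, 11 and 9. Over all genes the count was 949 (7.04%) with all libraries and lay between 298 (2.17%, without control 2) and 1960 (14.2%, without Remodelin 1). The 7 members without control 2 were 16.3% and the 17 without Remodelin 1 were 39.5%. Mcm5, Tk1, Uhrf1, Mcm10, Cdc20 and Ccnb2 were called in each of these 12 fits.

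**Figure D2:**
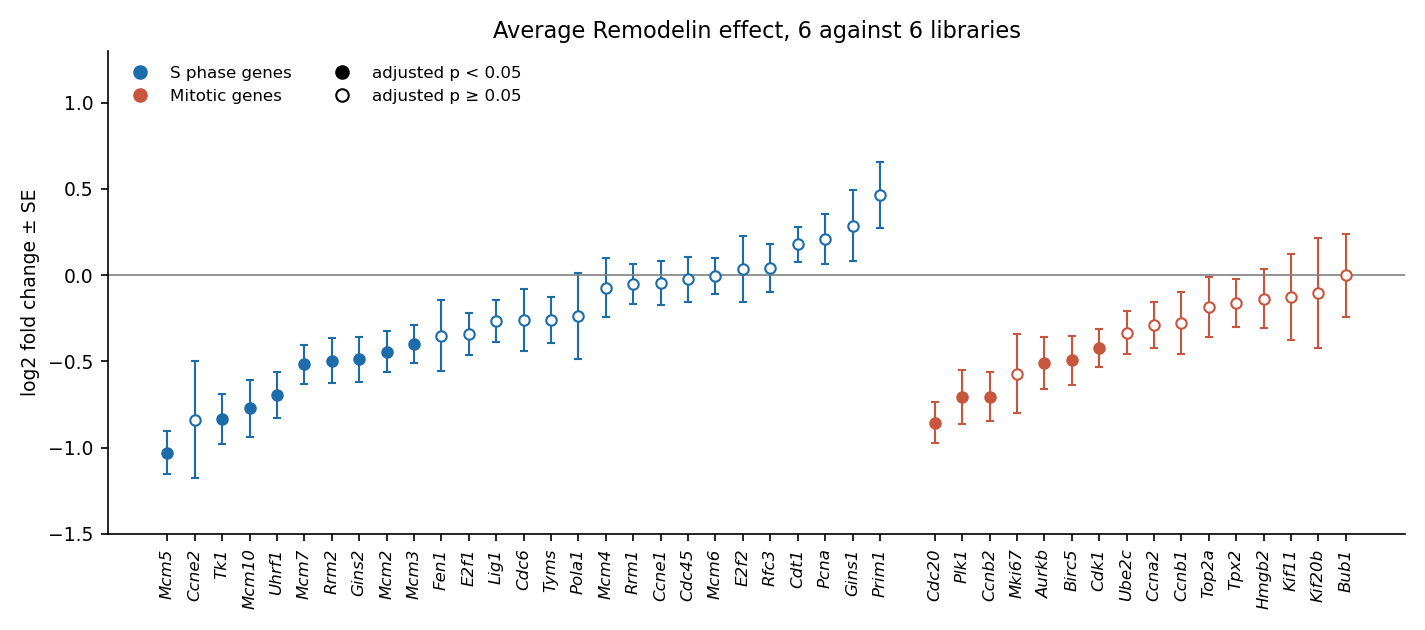
Average Remodelin effect (log2 fold change, vertical axis, with SE bars) of each of the 43 members, S phase genes in blue and mitotic genes in red, ordered by their estimate. Filled points have an adjusted p under 0.05, and these 15 all lie below 0, from -1.03 for Mcm5 to -0.40 for Mcm3. The SE bar of Bub1 is not reliable, because its estimate is so close to 0.

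Among the 8 licensing genes, 4 of the 6 subunits of the MCM2-7 ring fell and 2 did not pass. Mcm5 stood at 33.97, 52.1 and 37.5 CPM in control, 37.2, 37.2 and 33.3 with IFN-γ, 20.6, 19.4 and 20.2 with Remodelin and 14.6, 19.1 and 19.3 with both. Every library with Remodelin was below every library without it, and Mcm5 fell by 1.03 ± 0.13 on the log2 scale (adjusted p = 1.76e-04). Here and below, ± on the log2 fold change of a gene is its SE, derived from the estimate and its test statistic. Mcm7, another ring subunit, was measured at 28.3, 30.95 and 29.5 CPM in control, 30, 23.1 and 24.96 with IFN-γ, 18.9, 21.1 and 18.4 with Remodelin and 16.4, 21.03 and 20.5 with both. Its groups with and without Remodelin did not overlap either, and it fell by 0.52 ± 0.11 on the log2 scale (adjusted p = 0.0135), a call lost without IFN-γ 1 (adjusted p = 0.056). Mcm2 values were 31.5, 38.5 and 31.8 CPM in control, 31.8, 26.01 and 25.9 with IFN-γ, 21.4, 25.2 and 20.98 with Remodelin and 18.1, 25.5 and 24.5 with both. Mcm3 gave 38.3, 37.6 and 35.4 CPM in control, 36.5, 32.9 and 37.4 with IFN-γ, 25.7, 32.6 and 26.2 with Remodelin and 22.5, 29.6 and 28.3 with both.

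For both of these ring subunits the lowest library without Remodelin lay above the highest one with it, by small margins. Mcm2 fell by 0.44 ± 0.12 on the log2 scale (adjusted p = 0.0375) and Mcm3 fell by 0.40 ± 0.11 on the log2 scale (adjusted p = 0.0380). Each lost its call in 8 of the 12 fits that left out a library. The remaining ring subunits did not pass, with Mcm6 at -0.01 ± 0.11 (adjusted p = 0.972) and Mcm4 at -0.07 ± 0.17 (adjusted p = 0.808). Mcm6 was measured at 39.5, 37.5 and 44.2 CPM in control, 38.7, 38.96 and 37.4 with IFN-γ, 33.1, 36.9 and 38.7 with Remodelin and 47.7, 35.96 and 43.4 with both. Its groups overlapped throughout, and its highest value was that of Remodelin + IFN-γ 1. The ring loaders Cdc6 and Cdt1 had estimates of -0.26 ± 0.18 (adjusted p = 0.355) and 0.18 ± 0.10 (adjusted p = 0.262).

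Of the 4 genes that turn the loaded ring into a working helicase, Mcm10 and Gins2 fell. Mcm10, which promotes the opening of origins, was scarce, at 3.95, 4.51 and 4.45 CPM in control, 4.75, 4.02 and 3.66 with IFN-γ, 2.18, 2.13 and 2.66 with Remodelin and 2.37, 2.35 and 3.15 with both. All 6 Remodelin libraries were nevertheless below the other 6, and Mcm10 fell by 0.77 ± 0.16 on the log2 scale (adjusted p = 0.0114). Gins2, a subunit of GINS, was found at 18.5, 25.7 and 24.1 CPM in control, 24.7, 22.7 and 20.6 with IFN-γ, 21.5, 16.8 and 14.5 with Remodelin and 14.99, 16.1 and 13.6 with both. Here Remodelin 1 overlapped the groups without Remodelin, and Gins2 fell by 0.49 ± 0.13 on the log2 scale (adjusted p = 0.0328), losing the call in 8 of 12 fits without 1 library. Its partner Gins1 had an estimate of 0.29 ± 0.21 (adjusted p = 0.377) and Cdc45 one of -0.03 ± 0.13 (adjusted p = 0.919).

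None of the 6 genes of synthesis at the fork was called, and 3 of their estimates were negative. The clamp Pcna stood at 0.21 ± 0.14 (adjusted p = 0.358) and the primase subunit Prim1 at 0.46 ± 0.19 (adjusted p = 0.139). The flap nuclease Fen1 (-0.35), DNA ligase 1 (Lig1, -0.27), the polymerase alpha subunit Pola1 (-0.24) and the clamp loader subunit Rfc3 (0.04) had adjusted p between 0.1696 and 0.876. Pcna values were 183, 234 and 206 CPM in control, 269, 299 and 285 with IFN-γ, 286, 202 and 232 with Remodelin and 463, 255 and 268 with both. Remodelin + IFN-γ 1 stood far above the rest, and the Remodelin libraries overlapped the control libraries.

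Of the 4 nucleotide supply genes, thymidine kinase 1 and the small subunit of ribonucleotide reductase fell. Tk1, the thymidine salvage enzyme, was measured at 20.9, 29.2 and 28.3 CPM in control, 24.3, 25.1 and 21.98 with IFN-γ, 18.96, 13.4 and 11.8 with Remodelin and 10.6, 15.6 and 13.7 with both. The 6 libraries with Remodelin were all below the other 6, with Remodelin 1 nearest to them, and Tk1 fell by 0.83 ± 0.14 on the log2 scale (adjusted p = 0.00307). Rrm2, whose level limits deoxynucleotide supply in S phase, stood at 14.6, 13.3 and 12.4 CPM in control, 11.4, 9.61 and 11.8 with IFN-γ, 7.24, 8.82 and 7.86 with Remodelin and 10.6, 7.78 and 9.44 with both. Without IFN-γ its groups were separate, whereas with IFN-γ they overlapped, and Rrm2 fell by 0.50 ± 0.13 on the log2 scale (adjusted p = 0.0307), lost in 7 of 12 fits without 1 library. The large subunit Rrm1 was at -0.05 ± 0.11 (adjusted p = 0.798) and thymidylate synthase, Tyms, at -0.26 ± 0.13 (adjusted p = 0.223).

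Among the 5 regulators and chromatin genes only Uhrf1 fell. Uhrf1, which carries DNA methylation through replication by recruiting DNMT1, was measured at 18.4, 19.8 and 14.3 CPM in control, 13.6, 14.8 and 15.1 with IFN-γ, 10.3, 11.5 and 9.48 with Remodelin and 7.31, 11.01 and 9.49 with both. No library with Remodelin reached any library without it, and Uhrf1 fell by 0.69 ± 0.14 on the log2 scale (adjusted p = 0.00649). Cyclin E2 (Ccne2) was covered by 3 to 24 reads per library, with 0.608, 0.543 and 0.869 CPM in control, 0.792, 1.36 and 1.15 with IFN-γ, 0.192, 0.519 and 0.347 with Remodelin and 1.06, 0.418 and 0.466 with both. Its groups were separate by a small margin without IFN-γ and overlapped with it, and its estimate of -0.84 ± 0.34 (adjusted p = 0.134) did not pass. The transcription factor E2f1 was at -0.34 ± 0.12 (adjusted p = 0.0957), E2f2 at 0.04 ± 0.19 (adjusted p = 0.919) and cyclin E1 (Ccne1) at -0.05 ± 0.13 (adjusted p = 0.843).

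The mitotic genes that fell were Ccnb2 and Cdk1 of the cyclin and kinase pair that starts mitosis, the kinases Plk1 and Aurkb with Birc5 (survivin, Aurkb's partner in the chromosomal passenger complex), and Cdc20, which activates the anaphase-promoting complex. Cdc20 was measured at 17.4, 19.3 and 17.4 CPM in control, 18.9, 17.7 and 15.1 with IFN-γ, 9.93, 10.2 and 8.84 with Remodelin and 9.74, 8.82 and 10.9 with both. All libraries with Remodelin lay below all libraries without it, and Cdc20 fell by 0.86 ± 0.12 on the log2 scale (adjusted p = 5.40e-04). The gene Elovl1 overlaps Cdc20 on the opposite strand in the deposited table, with a mean of 3180 reads per library against 244, and it fell by 0.40 ± 0.10 on the log2 scale (adjusted p = 0.0227). Whether the counting used strand is unknown from the labels and notes, so reads of the overlap cannot be told apart. Mcm7 is likewise overlapped by Cops6 (3960 reads against 420), which was at -0.20 ± 0.13 (adjusted p = 0.306). The same limit holds for Fen1 with Tmem258 (3760 reads against 47.3) and Ccne2 with Ints8 (90.6 against 12.2). It also holds for Cdc45 with Ufd1 (552 against 142) and Ccna2 with Exosc9 (153 against 134). Tmem258, Ints8, Ufd1 and Exosc9 were not called.

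Cyclin B2, Ccnb2, was found at 9.16, 11.2 and 9.61 CPM in control, 11.5, 8.31 and 8.76 with IFN-γ, 6.598, 4.67 and 5.95 with Remodelin and 5.995, 6.16 and 6.52 with both. The groups did not overlap, and Ccnb2 fell by 0.71 ± 0.14 on the log2 scale (adjusted p = 0.00813). Its kinase Cdk1 stood at 23.4, 26.2 and 29.7 CPM in control, 27.6, 30.8 and 26.9 with IFN-γ, 18.5, 17.1 and 19.7 with Remodelin and 25.5, 20.98 and 21.9 with both. In each setting the groups were separate, though Remodelin + IFN-γ 1 lay above control 1, and Cdk1 fell by 0.42 ± 0.11 on the log2 scale (adjusted p = 0.0306). Cyclin B1 (Ccnb1) was at -0.28 ± 0.18 (adjusted p = 0.335) and cyclin A2 (Ccna2) at -0.29 ± 0.13 (adjusted p = 0.177).

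Plk1, a kinase of mitotic entry and spindle assembly, was measured at 9.62, 13.7 and 10.1 CPM in control, 11.3, 7.35 and 9.33 with IFN-γ, 5.89, 7.38 and 7.05 with Remodelin and 4.56, 6.21 and 6.41 with both. Across the groups only IFN-γ 2 and Remodelin 2 overlapped, by a small margin, and Plk1 fell by 0.71 ± 0.16 on the log2 scale (adjusted p = 0.0142), a call lost without control 2 or IFN-γ 1 (adjusted p = 0.0549 and 0.0558). Aurkb, the kinase that corrects faulty spindle attachments, gave 7.59, 8.25 and 6.03 CPM in control, 5.49, 5.599 and 6.87 with IFN-γ, 4.804, 4.33 and 4.16 with Remodelin and 4.496, 4.23 and 5.82 with both. Its groups overlapped only through Remodelin + IFN-γ 3, and Aurkb fell by 0.51 ± 0.15 on the log2 scale (adjusted p = 0.0482). Birc5 values were 12.7, 12.2 and 13.2 CPM in control, 10.98, 14.3 and 12.1 with IFN-γ, 10.6, 8.19 and 6.88 with Remodelin and 10.9, 7.67 and 9.44 with both. Every library without Remodelin was above every library with it, though IFN-γ 1 and Remodelin + IFN-γ 1 were nearly equal, and Birc5 fell by 0.49 ± 0.14 on the log2 scale (adjusted p = 0.0441).

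The calls of Cdk1, Aurkb and Birc5 were lost in 9, 10 and 10 of the 12 fits without 1 library. The checkpoint kinase Bub1 had an estimate of -6e-04 (adjusted p = 0.999). An SE derived as above is not reliable this close to 0. In the settings without and with IFN-γ the SE of Bub1 was 0.51 and 0.48. The other gene of the anaphase-promoting group, the ubiquitin-conjugating enzyme Ube2c, was at -0.33 ± 0.13 (adjusted p = 0.1102). The 3 spindle genes did not pass, with the motor Kif11 at -0.13, the motor Kif20b at -0.11 and the spindle assembly factor Tpx2 at -0.16. Nor did the 3 chromosome genes, topoisomerase Top2a at -0.19 ± 0.17 (adjusted p = 0.505), Mki67 at -0.57 ± 0.23 (adjusted p = 0.129) and the chromatin protein Hmgb2 at -0.14 ± 0.17 (adjusted p = 0.626).

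Across the 6 libraries with Remodelin against the 6 without, 11 members were lower without overlap and 0 were higher, where 3.42% and 1.24% of all genes were. The 11 were Mcm2, Mcm3, Mcm5, Mcm7, Mcm10, Tk1, Uhrf1, Ccnb2, Birc5, Cdc20 and Ube2c. The promoter letters were also counted by call. The E2F letters were in 40% of windows of called members and 40.7% of the others, and the CHR letters in 33.3% of each. CCAAT was in 86.7% (13 of 15 windows) and 59.3% (16 of 27). These windows belong to 13 called members and 23 others, so some genes gave more than 1. The called Gins2 and Aurkb had none. The difference was not tested.

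**Figure D3:**
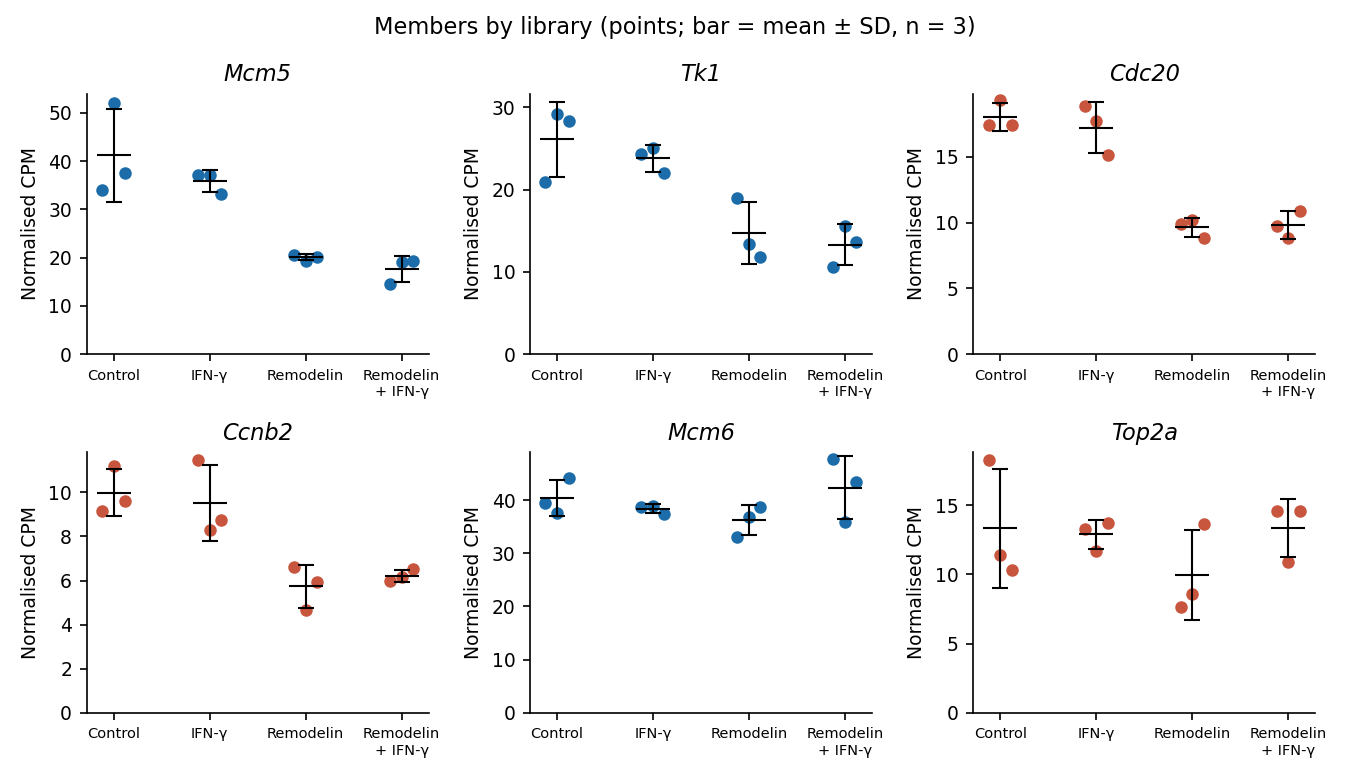
Normalised CPM (vertical axis, from 0) of Mcm5, Tk1 and Mcm6 (S phase, blue) and Cdc20, Ccnb2 and Top2a (mitotic, red) in each of the 12 libraries, as 3 points per group with a bar for mean ± SD. The 6 libraries with Remodelin lie below the other 6 for Mcm5, Tk1, Cdc20 and Ccnb2, and the groups overlap for Mcm6 and Top2a.

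The second question was what Remodelin did in each setting alone. Without IFN-γ, 2 of 43 members fell and 0 rose, where 0.846% of all genes were called (0.653% lower). With IFN-γ present, 2 of 43 fell and 0 rose, where 0.364% of all genes were called (0.223% lower). In both settings the 2 were Mcm5 and Cdc20. Mcm5 fell by 1.04 ± 0.18 on the log2 scale without IFN-γ (adjusted p = 0.0103) and by 1.02 ± 0.18 with it (adjusted p = 0.0148). Cdc20 fell by 0.90 ± 0.17 (adjusted p = 0.016) and by 0.81 ± 0.17 (adjusted p = 0.0465).

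Each of these calls rested on some libraries. Without IFN-γ, Mcm5 lost its call without control 2 (adjusted p = 0.0743) or Remodelin 2 (0.0545), and Cdc20 without control 2 (0.0989), Remodelin 2 (0.0571) or Remodelin 3 (0.0788). With IFN-γ, Mcm5 lost it without IFN-γ 1 (0.108), IFN-γ 2 (0.0929), Remodelin + IFN-γ 1 (0.061) or Remodelin + IFN-γ 3 (0.0541), and Cdc20 lost it whichever of the 6 libraries was left out (0.0911 to 0.268). With only the 2 groups compared in the fit, Mcm5 and Cdc20 lost their calls without IFN-γ (0.0643 and 0.0894), and so did Cdc20 with IFN-γ (0.0519). The latter also missed the threshold with DESeq2 size factors (0.0552), limma-voom (0.0522) and the GC trend removed (0.0783). Leaving out control 1 and Remodelin 1 together raised the counts to 11 and 4 members, while all genes called went from 114 to 1853 (13.6%) and from 49 to 464 (3.40%). DESeq2 called 7 and 3 members, and 247 (1.90%) and 292 (2.42%) of the genes it gave an adjusted p.

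The order of the medians differed between the settings. Without IFN-γ the S phase median was -0.22 and the mitotic median -0.48, and 15 of 16 mitotic estimates were negative. With IFN-γ the medians were -0.30 and -0.26, and 12 of 16 mitotic estimates were negative. In fits without 1 library the latter medians ranged from -0.31 to -0.17 and from -0.34 to -0.17, so that their order was not fixed. Over all 13474 genes the medians were 0.01 without IFN-γ and 0.03 with it, and 6529 and 6278 estimates were negative. Of the 43 members 19 were lower without overlap in the absence of IFN-γ (11 S phase, 8 mitotic) and 18 in its presence (10 and 8), where 10.3% and 15.6% of all genes were. Cdt1 and Kif20b were higher without overlap in its absence and Prim1 in its presence, where 6.09% and 12.2% of all genes were. At an unadjusted p under 0.05, 17 members (39.5%) passed without IFN-γ, against 12.7% of all genes, and 15 (34.9%) with it, against 16.2%. In the authors' deposited table, 1 S phase and 1 mitotic gene were lower at their adjusted p under 0.05 without IFN-γ, and 4 and 1 with it. By the same rule 0.433% and 2.19% of all genes with an adjusted p in the authors' deposited table were lower.

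**Figure D4:**
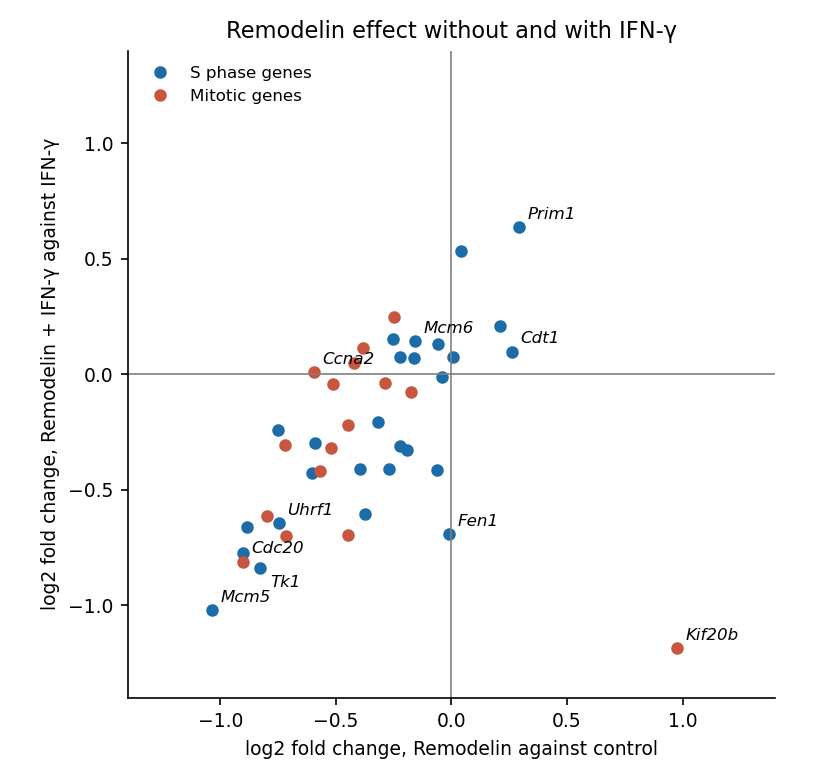
Log2 fold change of each member for Remodelin without IFN-γ (horizontal axis) and with IFN-γ present (vertical axis), S phase and mitotic genes in different colours. Mcm5 (-1.04 and -1.02) and Cdc20 (-0.90 and -0.81) lie low on both axes, and Kif20b (0.97 and -1.18) lies at the lower right.

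Whether the Remodelin effect itself differed with IFN-γ was tested by the interaction. No member passed (0 of 43 with edgeR and with DESeq2, 2, or 4.65%, at an unadjusted p under 0.05), where 0.00742% of all genes were called and 310 (2.30%) had an unadjusted p under 0.05. The 2 were cyclin A2, at 0.60 ± 0.27 (adjusted p = 1.0), and Kif20b. The interaction estimate was positive for 14 of 16 mitotic and 17 of 27 S phase genes, with medians of 0.22 and 0.10 against 0.02 over all genes. Without 1 library the mitotic median lay between 0.12 and 0.34. For Mcm5 it was 0.01 ± 0.25 and for Cdc20 0.09 ± 0.24.

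For IFN-γ alone, which was compared with the same control libraries as Remodelin, no member passed the test. Against control 0 of 43 members were called with edgeR or DESeq2, where 0.0148% of all genes were called, all of them higher. Of the members 1, Pcna (2.33%), had an unadjusted p under 0.05, against 724 genes (5.37%) in all. The S phase median was -0.10 and the mitotic median -0.06. The estimates farthest from 0 were those of Ccne2, at 0.70 ± 0.44 (adjusted p = 0.889), among S phase genes and of Hmgb2, at 0.44 ± 0.24 (adjusted p = 0.889), among mitotic genes. Hmgb2, a chromatin protein that bends DNA, was measured at 16.4, 14.2 and 19.5 CPM in control, 23.8, 22.7 and 21.6 with IFN-γ, 10.2, 12 and 16.1 with Remodelin and 35.9, 17.4 and 20.4 with both. Its IFN-γ libraries lay above the control libraries, and Remodelin + IFN-γ 1 was the highest of all 12. Pcna was the other member higher without overlap, and Cdt1, Rrm2, Ccne1, Rfc3 and Ube2c were lower, where 9.18% and 8.51% of all genes were.

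IFN-γ added to Remodelin likewise gave 0 of 43 calls with edgeR and with DESeq2, where 0% of all genes were called (1043 genes, 7.74%, had an unadjusted p under 0.05), and 5 members had an unadjusted p under 0.05 (Cdt1, Pcna, Prim1, Kif20b and Hmgb2). Hmgb2 was at 0.94 ± 0.24 (adjusted p = 0.636) and was called when no filter on low counts was used. Mcm5, Cdt1 and Kif20b were lower without overlap and Prim1, Ccna2, Cdk1 and Hmgb2 higher, where 3.49% and 5.99% of all genes were. The S phase median was -0.01 and the mitotic median 0.13, the latter 0.10 to 0.25 without 1 library. Kif20b, a motor of late cell division, was at -2.13 ± 0.47 (adjusted p = 0.636) on 4 to 31 reads per library.

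The members were also averaged per library, to compare the S phase genes with the mitotic genes. The mean log2 level of the 27 S phase genes relative to control was -0.30 ± 0.03 (SD, n = 3) with Remodelin, -0.27 ± 0.05 with Remodelin and IFN-γ, and -0.03 ± 0.02 with IFN-γ. For the 16 mitotic genes the means were -0.42 ± 0.11, -0.33 ± 0.22 and -0.03 ± 0.07, and the control libraries themselves varied by 0.14 (SD) against 0.06 for the S phase genes. Each of the 6 libraries with Remodelin was below the other 6 on both scores, although for the mitotic genes Remodelin + IFN-γ 1 (-0.15) lay next to control 3 (-0.13). Because the members were chosen with earlier results of these data known, this separation is not independent evidence. The S phase score minus the mitotic score was 0.12 ± 0.14 with Remodelin and 0.06 ± 0.18 with both agents, against 0 ± 0.17 in control. Both differences were smaller than the spread between libraries. With the members of at least 5 CPM only, the difference with Remodelin was 0.24 ± 0.09, against 0 ± 0.09 in control, and -0.03 ± 0.20 with both agents.

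**Figure D5:**
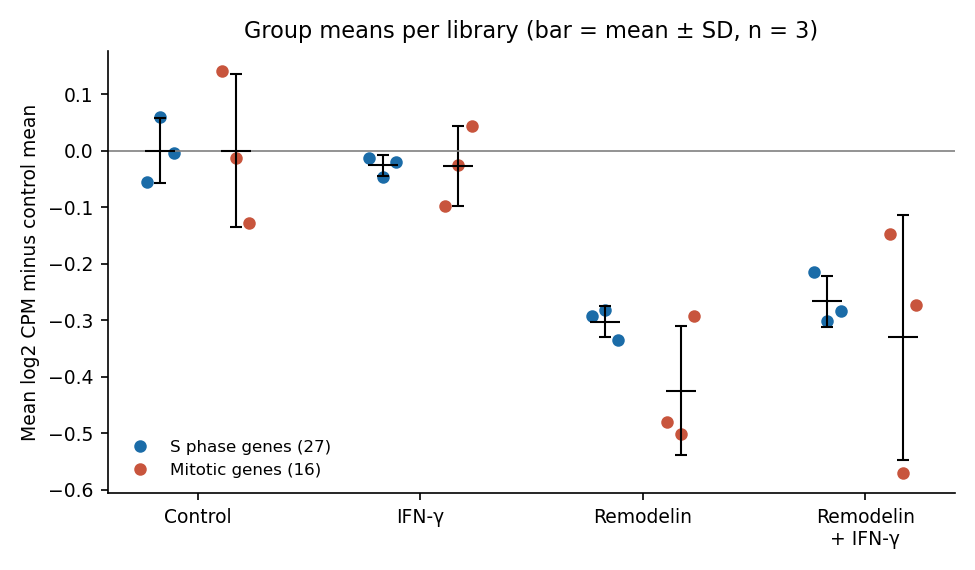
Mean log2 CPM relative to the control mean over the 27 S phase genes and the 16 mitotic genes in each library (points, 3 per group), with the group mean and SD. The Remodelin groups sit between -0.33 and -0.22 for S phase genes and between -0.57 and -0.15 for mitotic genes.

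Other genes of the same pathways were read from lists that do not hold the members. Of 44 other replication genes 3 (6.82%) fell and 0 rose in the average Remodelin effect, with a median of -0.05, and of all genes 4.80% fell and 2.24% rose. These were the histone chaperones Asf1b, at -0.65 ± 0.15 (adjusted p = 0.0198), and Chaf1a, at -0.56 ± 0.14 (adjusted p = 0.0298), and the polymerase delta subunit Pold2, at -0.60 ± 0.16 (adjusted p = 0.0347). Of 49 other mitosis genes 3 (6.12%) fell and 0 rose, with a median of -0.25. The shares that fell in both lists were near that of all genes. These were the kinetochore subunit Spc24, at -0.90 ± 0.19 (adjusted p = 0.0109), the cyclin F gene Ccnf, at -0.62 ± 0.17 (adjusted p = 0.0389), and the centromeric histone Cenpa, at -0.43 ± 0.12 (adjusted p = 0.0469). The separase gene Espl1 did not pass, at -0.61 ± 0.19 (adjusted p = 0.0568). In neither list was a gene called in either single setting.

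Among 17 regulators of the E2F and MuvB programmes 1 (5.88%) fell and 1 rose, close to the share of all genes for those that fell, and the median was 0.23. Mybl2, which encodes B-MYB, was measured at 4.15, 6.24 and 6.46 CPM in control, 4.02, 4.36 and 6.01 with IFN-γ, 2.24, 2.48 and 3.24 with Remodelin and 2.997, 2.61 and 2.85 with both. No library with Remodelin reached the lowest library without it, and Mybl2 fell by 0.92 ± 0.18 on the log2 scale (adjusted p = 0.00653). The repressor E2f5 rose by 0.62 ± 0.17 on the log2 scale (adjusted p = 0.0402). The pocket protein Rbl2, at 0.45 ± 0.15 (adjusted p = 0.0708), and the activator Foxm1, at -0.50 ± 0.20 (adjusted p = 0.128), did not pass.

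A list of 14 genes held D-type cyclins, the cyclin-dependent kinases Cdk2, Cdk4 and Cdk6, and inhibitors of such kinases. Of these 1 (7.14%) fell and 2 (14.3%) rose, beside 4.80% and 2.24% of all genes. Cdkn1a, which encodes the inhibitor p21, stood at 80.3, 98.3 and 88.7 CPM in control, 94.7, 93.8 and 85.3 with IFN-γ, 142, 142 and 126 with Remodelin and 114, 140 and 126 with both. It rose by 0.54 ± 0.10 on the log2 scale (adjusted p = 0.00384), and every library with Remodelin was above every library without it. Ccnd2, a G1 cyclin, rose by 0.54 ± 0.16 (adjusted p = 0.0435). Cdkn1c, which encodes the inhibitor p57, was found at 745, 877 and 894 CPM in control, 999, 990 and 908 with IFN-γ, 489, 452 and 402 with Remodelin and 415, 528 and 456 with both. Its libraries with and without Remodelin were far apart, and Cdkn1c fell by 0.98 ± 0.10 on the log2 scale (adjusted p = 5.09e-05).

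Base composition and some markers of other cells moved with these results. The part of the marker levels in them was not tested. The 15 members that fell had a median transcript GC content of 51.9% (46 to 56%) and the other 28 one of 46.4%, against 49.8% over 13339 tested genes. Across genes, which are not independent and share the same libraries, GC content and the average Remodelin effect had a Spearman rho of -0.33 over the 43 members and -0.50 over the 13339 genes. With each library's trend on GC content removed, 16 members were called, 15 lower and Cdt1 higher, where 768 (5.70%) of all genes were called. The 15 lower were not the same genes. Of the members that fell in the main fit 13 stayed called, and Ccne2 and Ccna2 were new. Remodelin + IFN-γ 1 was highest of all libraries for 9 members (Mcm6, Gins1, Pcna, Rrm1, Prim1, Ccnb1, Bub1, Tpx2 and Hmgb2, median GC 44.2%) and lowest for 11 (median GC 53.6%). The 7 neutrophil markers summed to 47.5 to 55.9 CPM in control, 47.2 to 52.5 with IFN-γ, 28.95 to 32.7 with Remodelin and 32.0 to 35.2 with both. Of the 4 tested, Mmp8 and Mmp9 fell, and S100a8, at -0.21 ± 0.14 (adjusted p = 0.346), and Cxcr2, at 0.30 ± 0.33 (adjusted p = 0.582), did not pass. S100a9 (at most 0.694 CPM), Ly6g and Retnlg were too low to test. The 11 mesothelial and stromal markers summed to 306.5 to 441.9, 282.5 to 320.4, 186.7 to 300.9 and 259.6 to 290.5 CPM. Of these markers 4 (36.4%) were called lower and 0 higher, where 4.80% and 2.24% of all genes were. Their estimates were negative for 7 and positive for 4, up to 0.64. The 8 B cell markers summed to 73.5 to 78.8, 65.3 to 78.0, 61.6 to 74.1 and 49.8 to 65.1 CPM, with Ighm lower. The 6 dendritic cell markers summed to 390.4 to 507.5, 324.4 to 375.3, 339.2 to 519.8 and 208.7 to 424.6 CPM. Sums of libraries with and without Remodelin were separate for the neutrophil markers. They overlapped for the mesothelial and stromal, B cell, dendritic cell and T and NK cell markers. None of the 7 tested macrophage markers was called.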

How the data were processed

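RNA sequencing counts of 12 libraries in 4 groups of 3 were analysed. The authors deposited a table of raw read counts and FPKM values per gene together with their own log2 fold changes and adjusted p-values, per the file headers. The submitters' processing notes name CASAVA 1.8, HISAT2 2.0.5 and featureCounts 1.5.0-p3 without their roles. The genome build, annotation release, use of strand and treatment of multiply mapped reads were not given in the sources used here. Pcna, Ccnb1, Ccnb2 and Tyms have pseudogenes in the table, and reads could be divided between the copies. The counts were tested in 1 fit of all 12 libraries with a mean per group (edgeR 4.0.16, R 4.3.3), using TMM normalisation, the default filter on low counts, two-sided quasi-likelihood tests and Benjamini-Hochberg adjustment over 13474 genes, and genes under 0.05 were called. The common biological coefficient of variation was 18.6%. Log2 CPM used a prior count of 2, and the score from FPKM a pseudocount of 0.1. GC content of the longest transcript was known for 99% of tested genes. DESeq2 1.42.0 and limma-voom (3.58.1), other filters, the replicate block and leaving out libraries were tried as alternatives, and the fits were tested on simulated data. Groups and replicate numbers came from the labels. The members and gene lists were chosen with earlier results of these data known, and so was the omission of control 1 and Remodelin 1 together. Members with values in every library were the 6 of each group with the smallest p in the average Remodelin effect, those called in a single comparison, and the member of each group farthest from 0 for IFN-γ. Values of Mcm2, Mcm3, Gins2, Mcm6, Pcna, Mybl2, Cdkn1a and Cdkn1c were added after they were seen. The table's own coordinates are not used here.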

Additional observations from a re-analysis of the deposited data

Results flagged for a closer look

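Kif20b, a kinesin of late cell division, had Remodelin estimates on opposite sides of 0 in the settings without and with IFN-γ. Its counts were 17, 13 and 7 reads in control, 15, 19 and 31 with Remodelin, 8, 12 and 15 with IFN-γ and 5, 4 and 6 with both agents. As normalised CPM every Remodelin library was above every control library, and every library with both agents was below every IFN-γ library. The log2 fold change for Remodelin was 0.97 ± 0.42 without IFN-γ (adjusted p = 0.336) and -1.18 ± 0.51 with it (adjusted p = 0.263), and neither passed the test. The interaction was -2.16 ± 0.66 (unadjusted p = 0.00422, adjusted p = 1 with edgeR), so the difference did not pass the test. Of the 13474 tested genes 17 (0.126%) separated in this way, and of the 43 members only Kif20b (2.33%).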

How the results depend on the processing

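No called value changed direction under the alternatives tried. Over the counts of called members, medians and scores, 270 recomputed values stayed within the limits set and 57 moved beyond them. The number of members called for Remodelin against control was 2, but 7 with DESeq2, 7 with the GC trend removed, 11 with GC and length trends removed (1 of them, Cdt1, higher), 0 with only those 2 groups fitted, 11 without both control 1 and Remodelin 1, and 0 to 3 without 1 library. All genes called in those fits were 114, 247, 190, 408, 22, 1853 and 20 to 121, in the same order. With IFN-γ present it was 2, but 1 with DESeq2 size factors, limma-voom, the GC trend removed or only those 2 groups, 4 without both libraries, and 0 to 1 without 1 library. All genes called were 49, then 40, 39, 70, 83, 464 and 10 to 26. IFN-γ added to Remodelin gave 0, but 1 (Hmgb2) with no filter, where all genes gave 0 and 6. The average effect gave 15 members, and 6 to 17 without 1 library, and all genes 949 and 298 to 1960. Without both libraries it gave 18 members and 3668 genes. With no filter it gave 10 members and 1406 genes. The replicate numbers did not pair the libraries: deviations from the group mean had correlations of -0.547 to 0.261 over 18 same-numbered pairs, of which 5 exceeded 0.1. With the replicate block the counts were 2 without IFN-γ, 1 with IFN-γ and 8 for the average effect, and 0 for the others, among 58, 24 and 578 genes. In the average effect Mcm5, Mcm7, Mcm10, Tk1, Uhrf1, Ccnb2, Plk1 and Cdc20 stayed called with the block, and Mcm2, Mcm3, Gins2, Rrm2, Cdk1, Birc5 and Aurkb had adjusted p of 0.0534 to 0.0876. With IFN-γ present Cdc20 had one of 0.111.

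The S phase median for Remodelin against control (-0.22) was -0.27 with the GC trend removed, -0.28 without both libraries and -0.30 to -0.21 without 1 library, and the mitotic median (-0.48) was -0.63 to -0.42 without 1. With IFN-γ present the S phase median (-0.30) was -0.25 with at least 50 reads in 3 libraries, -0.23 with the GC trend removed, -0.23 with GC and length trends removed, and -0.31 to -0.17 without 1 library. For IFN-γ against control it (-0.10) was -0.15 without both libraries and -0.15 to -0.055 without 1. For IFN-γ added to Remodelin it (-0.01) was 0.03 without both and -0.069 to 0.049 without 1. The interaction median (0.10) was 0.039 with GC and length trends removed, 0.21 without both and 0.0071 to 0.15 without 1. The average S phase median (-0.26) was -0.36 without both and -0.32 to -0.24 without 1. The cause was not tested. Depth limits Kif20b, Ccne2 and Bub1 most, with as few as 4, 3 and 8 reads in a library.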
